A study of Rattus norvegicus with 3 samples.

Results

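Imprinted growth regulators were examined in 3 libraries of polyadenylated RNA from commissural neurons, the spinal neurons whose axons cross the ventral midline. The members were fixed by symbol: every row of the authors' table whose gene column matched, ignoring case, Nnat, Ndn, Magel2, Peg3, Dlk1, Igf2, Cdkn1c, Plagl1, Grb10 or Snrpn. Of these 10 symbols, 9 matched, with 10 of the 26353 rows, since Nnat has 2 rows. Snrpn had no match, so no level is given for it. It enters below through its promoter window and through a Snurf row that may include its fragments. The neurons were isolated from rat embryos of embryonic day 13 and kept for 2 days in culture, and the libraries form 1 group without a treated or control arm. No strain, sex or genotype is stated, and whether the libraries came from separate dissections is not said, so every p-value measures the spread between these libraries, which may be technical. Values are FPKM, the authors' fragment numbers divided by transcript length and by mapped fragments. Comparisons between genes thus rest on the authors' transcript lengths, which are not stated here, and overlapping genes may share fragments.

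Imprinted genes are transcribed mainly from the allele inherited from 1 parent. In mouse, Nnat, Ndn, Magel2, Peg3, Dlk1, Igf2, Plagl1 and Snrpn are expressed from the paternal allele and Cdkn1c from the maternal one, while Grb10 uses the paternal allele in neurons and the maternal one in most other tissues. Several act on growth in opposite directions: Igf2 promotes it, and Cdkn1c and Grb10 restrain it. FPKM sums both alleles, so allelic expression was not measured here.

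Markers of the labelled neurons were present, with 7 of 7 pan-neuronal and 4 of 4 commissural axon markers above 1 FPKM. The cultures may not have been pure, since 6 of 6 progenitor and 6 of 6 proliferation markers also lay above 1 FPKM. So did 2 of 4 microglia and macrophage (1 without library 2, and 1 without library 3), 1 of 2 erythroid and 1 of 7 fibroblast and meningeal markers. The 5 endothelial and 4 muscle markers gave 0 calls in limma, and 0 at an unadjusted p under 0.05. Over all rows tested, 63.7% were called above 1 FPKM, so a pass alone does not measure the share of a cell type. Library 2 stood apart for some genes, among them the commissural receptor gene Robo3, at 118, 74.5 and 119 FPKM in libraries 1, 2 and 3. FPKM gives no absolute depth, so no counting intervals were computed. In bulk RNA, fewer cells of a type and less RNA per cell cannot be told apart.

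Of the 9 matched members, 8 were called above 1 FPKM by limma (one-sided, Benjamini-Hochberg adjustment), read against 63.7% of the 17611 rows tested. The median of the members' mean levels, with the described row of Nnat, was 54.2 FPKM, against 4.81 FPKM over all rows tested. Igf2 was the exception.

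**Figure D1:**
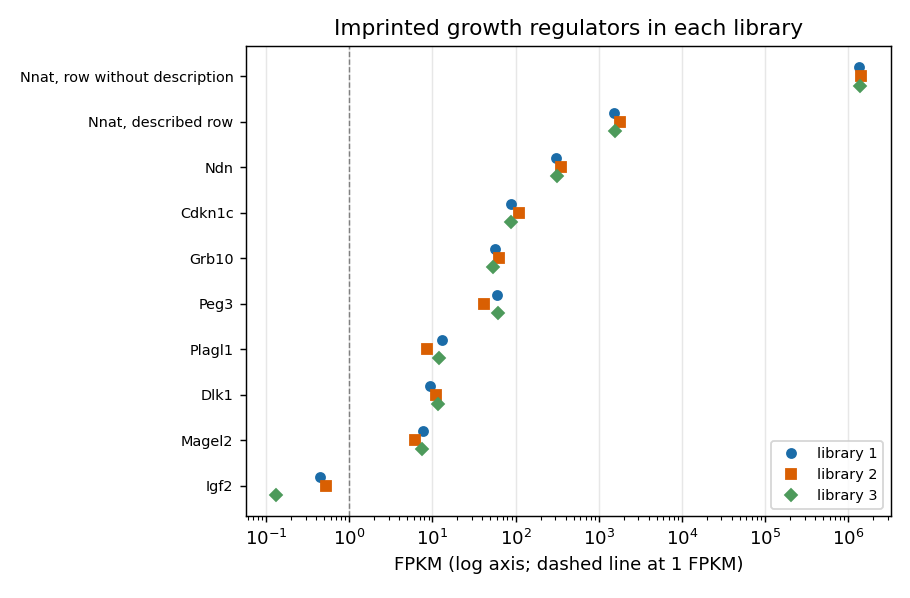
FPKM on a log axis for each member row (rows, highest mean at the top) in libraries 1, 2 and 3 (symbols), with a dashed line at 1 FPKM. Levels run from the Nnat row without a description, at 1337000 FPKM or more, to Igf2, which lies below 1 FPKM in all libraries.

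Neuronatin, the product of Nnat, is a small membrane protein of the endoplasmic reticulum that acts on calcium handling and is known from developing neurons. Its described row (ENSRNOG00000024923) had 1539, 1806 and 1578 FPKM in libraries 1, 2 and 3, or 1641 ± 144 FPKM (SD, n = 3). That made it the 10th highest of the 19611 rows with a description. The level exceeded that of Tubb3, the neuronal beta-tubulin gene, by 1.63 to 1.75 times in each library. The 3 described genes closest to it over the 3 libraries, by Euclidean distance of log2(FPKM + 0.1), were Tubb5 at 1654 FPKM (distance 0.08), Eef1a1 at 1693 FPKM (0.17) and Actb at 1854 FPKM (0.31). Tubb5 encodes a beta-tubulin, Eef1a1 a translation elongation factor and Actb a cytoplasmic actin.

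The second Nnat row (ENSRNOG00000043596) has no description and was listed at 1337000, 1440440 and 1401150 FPKM. It was the third highest row of the whole table and held 5.34%, 7.24% and 5.34% of all summed FPKM in libraries 1, 2 and 3. It is 1 of 56 rows with a mean above 10000 FPKM, of which 3 carry a symbol and 0 a description. FPKM divides by transcript length and has no upper limit, and the authors' transcript lengths are not stated here. The value was therefore not read as a level of Nnat, and both rows could share fragments. The spread between libraries was small in both, with a coefficient of variation of 3.75% for the row without a description and 8.78% for the described row.

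In mouse and human, Nnat lies within an intron of Blcap, and in RefSeq's rat annotation the genes stand next to each other. Blcap had 79.0, 97.4 and 79.8 FPKM, and the described Nnat row exceeded it by 18.6 to 19.8 times. Both were highest in library 2. Of the other genes listed with neuronatin, Atp2a2, the calcium pump that neuronatin is thought to act on, had 86.5 ± 1.74 FPKM (SD, n = 3) and lay above 1 FPKM. The related small pump regulators did not pass: Pln (phospholamban) had 0.56, 0.39 and 0.14 FPKM, and Sln (sarcolipin) was listed at 0, 0.29 and 0. Of the other pump genes, Atp2a1 had 0.11, 0.02 and 0.02 FPKM and Atp2a3 0.03, 0.01 and 0.02. Thus 2 of the 6 genes (33.3%) lay above 1 FPKM, against 63.7% of all rows.

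Ndn and Magel2 encode proteins of the MAGE family and are neighbours in the rat genome, in the region whose human counterpart is lost in Prader-Willi syndrome. Necdin, the product of Ndn, binds E2F factors and restrains proliferation in neurons, while MAGEL2 works in human cells with the ubiquitin ligase TRIM27 on the WASH complex of endosomes. The 250 bases before each RefSeq start (build GRCr8) are shown for this pair of neighbours with unlike levels, and for Peg3, which stands in a separate imprinted cluster. The Ndn window is chr1:125260809-125261058, that of Magel2 chr1:125291783-125292032 and that of Peg3 chr1:76130744-76130993, all on the plus strand. Capitals mark matches on either strand to any of 4 motifs. The motif of ZFP57, which binds imprinted control regions, was searched as TGCCGC. The core of the site of the activator NRF1 was searched as GCATGCGC. A GC box, bound by Sp1, was searched as GGGCGG. The element bound by the TATA-binding protein was searched as TATAAA.
Ndn: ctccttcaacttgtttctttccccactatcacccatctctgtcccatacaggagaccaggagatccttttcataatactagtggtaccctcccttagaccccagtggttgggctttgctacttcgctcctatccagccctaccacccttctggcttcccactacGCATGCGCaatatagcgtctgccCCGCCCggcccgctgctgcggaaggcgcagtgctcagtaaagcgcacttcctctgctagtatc
Magel2: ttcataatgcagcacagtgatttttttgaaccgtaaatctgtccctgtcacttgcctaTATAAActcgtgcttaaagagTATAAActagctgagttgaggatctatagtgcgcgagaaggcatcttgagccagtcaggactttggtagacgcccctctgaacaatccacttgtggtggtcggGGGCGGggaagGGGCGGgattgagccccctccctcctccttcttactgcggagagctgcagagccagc
Peg3: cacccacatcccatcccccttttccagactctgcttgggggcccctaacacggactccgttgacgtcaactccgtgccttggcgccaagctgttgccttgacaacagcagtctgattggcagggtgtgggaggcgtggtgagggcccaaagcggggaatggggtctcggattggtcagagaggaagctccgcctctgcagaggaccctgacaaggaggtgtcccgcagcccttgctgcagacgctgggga
The Ndn window holds 1 NRF1 core and 1 GC box, the Magel2 window 2 GC boxes and 2 TATAAA matches, and the Peg3 window none of the 4 motifs. The TATAAA matches of Magel2 begin at -192 and -171 relative to the start. Over 33469 rat promoter windows of the same length, 2.20% hold the NRF1 core, 30.5% a GC box, 12.9% a TATA box and 8.91% the ZFP57 motif. There were 9 windows for 8 member symbols, since Igf2 has 2. Of these symbols, 4 hold the ZFP57 motif (Dlk1, Igf2, Plagl1 and Snrpn) and 6 a GC box (all but Peg3 and Snrpn) in any window. The 2 motifs of Igf2 lie in separate windows. These counts are by symbol, while the shares above are by window. The windows of Dlk1 and Grb10 hold 41 and 38 CpG, against a median of 5 over all windows, while those of Ndn, Magel2 and Peg3 hold 10, 9 and 11. The matches describe the letters in these windows, and binding was not measured.

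Ndn (ENSRNOG00000010146) had 310, 357 and 311 FPKM in libraries 1, 2 and 3, or 326 ± 26.7 FPKM (SD, n = 3), rank 147 among described rows. Magel2 (ENSRNOG00000010158) had 7.80, 6.14 and 7.42 FPKM, or 7.12 ± 0.870 (SD, n = 3). Ndn thus exceeded its neighbour by 39.7 to 58.1 times within libraries. Library 2 was the highest for Ndn and the lowest for Magel2.

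The next genes along the chromosome in RefSeq's order, Mkrn3, a ring finger gene, and Peg12, had 5.74 ± 0.550 and 2.41 ± 0.362 FPKM (SD, n = 3 each) and lay below Ndn in every library. On the other side of this imprinted region stand Ube3a, a ubiquitin ligase gene expressed from the maternal allele in mouse neurons, at 18.6 ± 1.10 FPKM, and Snurf. Snurf shares its transcript with Snrpn in mouse and human and has 2 rows here. The row whose description names a small nuclear ribonucleoparticle-associated protein (ENSRNOG00000015976) had 206, 231 and 198 FPKM. The other (ENSRNOG00000022595), described as SNRPN upstream reading frame protein-like, had 3.97, 4.65 and 4.09. The row described by the reading frame is thus the lower of the 2. Whether the higher row includes Snrpn fragments was not tested. SmN, the protein of Snrpn, takes the place of the Sm B protein of Snrpb in neurons. Snrpb had 104, 119 and 101 FPKM, and the higher Snurf row exceeded it by 1.94 to 1.99 times.

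**Figure D2:**
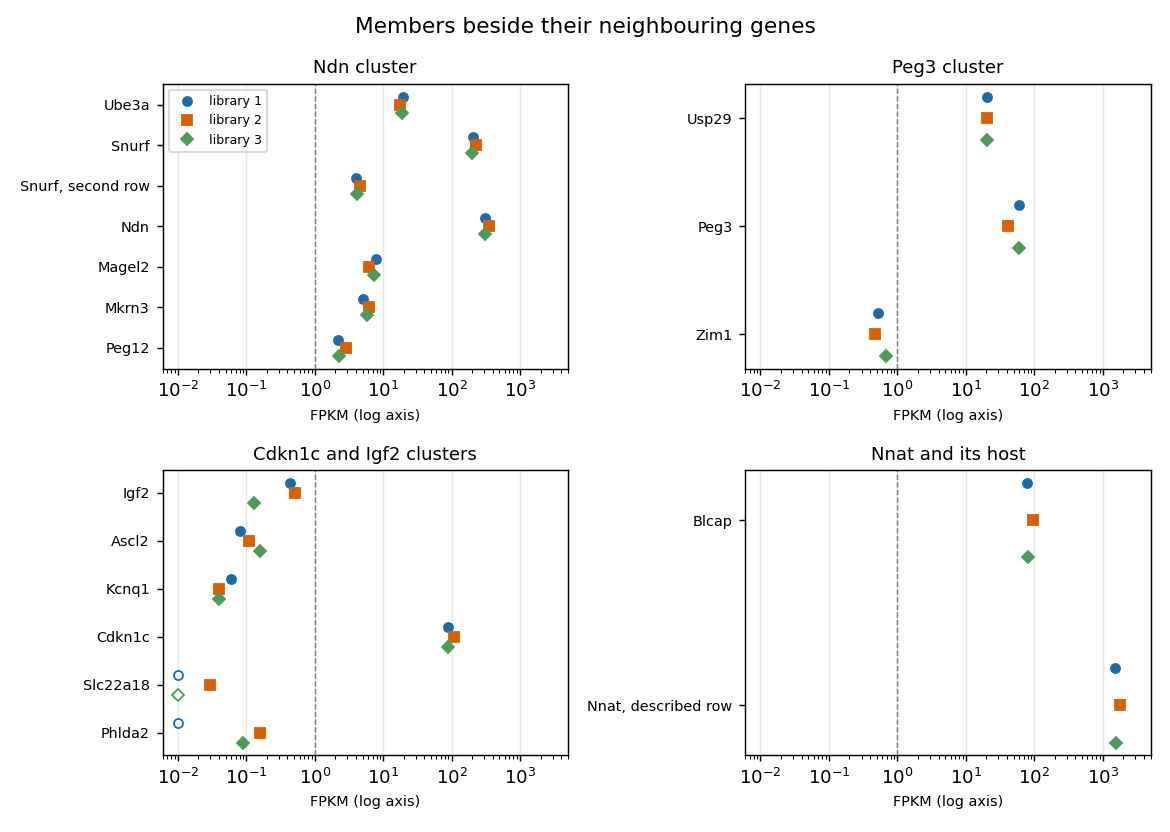
FPKM on log axes in libraries 1, 2 and 3 (symbols) for members and the genes of the same imprinted regions, with a dashed line at 1 FPKM and open symbols for values listed at 0. Ndn and the higher Snurf row lie between 198 and 357 FPKM while Magel2, Mkrn3 and Peg12 lie at 7.80 or less, and Cdkn1c alone among the genes drawn with it lies right of the line.

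All 5 other MAGE genes matched lay above 1 FPKM, as did 63.7% of all rows tested. Maged1, which binds the neurotrophin receptor p75, had 260 ± 10.5 FPKM (SD, n = 3), and Ndn exceeded it by 1.21 to 1.31 times. Mageh1 had 61.0 ± 5.75, Maged2 43.2 ± 4.37, Magee1 24.8 ± 0.598 and Magee2 2.84 ± 0.382 FPKM. Of the 14 genes listed as partners of necdin or Magel2, 13 (92.9%) passed, against 63.7% of all rows. Fez1, an axon growth protein that binds necdin, led them with 191 ± 27.7 FPKM (SD, n = 3), before Vps35, a retromer subunit, at 65.3 ± 5.64 FPKM. For the MAGEL2 complex, Usp7 had 46.4 ± 2.26 and Trim27 15.4 ± 1.98 FPKM, and the 5 WASH complex genes lay between 11.2 and 19.2 FPKM. All of these stood above Magel2 itself.

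Cdkn1c encodes p57, an inhibitor of cyclin-dependent kinases that holds cells out of the cycle. Cdkn1c (ENSRNOG00000020559) had 89.5, 110 and 87.6 FPKM, or 95.8 ± 12.6 FPKM (SD, n = 3), highest in library 2. It exceeded its relatives Cdkn1b (p27), at 61.9 ± 5.41 FPKM, by 1.5 to 1.62 times and Cdkn1a (p21), at 25.4 ± 1.80 FPKM, by 3.62 to 4.02 times within libraries. All 10 inhibitors, kinases and G1 cyclins on the list lay above 1 FPKM, as did 63.7% of all rows tested. They ran from Cdk4 at 355 ± 39.1 to Ccne2 at 2.83 ± 0.384 FPKM. The summed level of the 6 proliferation markers was 114, 134 and 119 FPKM in libraries 1, 2 and 3. Pcna held most of it, at 65.2, 78.1 and 65.0 FPKM. Mki67 was lowest in library 2 (4.72, 3.91 and 4.76 FPKM), Top2a highest in library 3, and the others highest in library 2. The 6 progenitor markers summed to 947, 1203 and 978 FPKM, and the 7 pan-neuronal markers to 2153, 2324 and 2093. Higher values in library 2 were common. Over 8069 described genes of at least 5 FPKM, its median log2 difference from the mean of libraries 1 and 3 was 0.14. The part of these cells in the level of Cdkn1c was not tested. The imprinted neighbours of Cdkn1c were near 0: Slc22a18 was listed at 0, 0.03 and 0 FPKM, Phlda2 at 0, 0.16 and 0.09, and Kcnq1 had 0.0467 ± 0.0115 FPKM.

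Grb10 is an adaptor that binds the insulin and IGF1 receptors and dampens their signal. Grb10 (ENSRNOG00000004290) had 56.1, 63.2 and 53.9 FPKM, or 57.7 ± 4.82 FPKM (SD, n = 3). Of its family, Grb14 had 1.96 ± 0.332 FPKM and Grb7 0.08 ± 0.0361, and Grb10 exceeded Grb14 by 23.3 to 34.0 times. The receptors it acts on were lower than Grb10: Igf1r had 12.0 ± 2.26 and Insr 11.1 ± 1.52 FPKM. Both receptors were lowest in library 2, where Grb10 was highest. The log2 difference of Grb10 there from the mean of libraries 1 and 3, 0.20, was near the median of described genes, 0.14. A relation between Grb10 and the receptors was not tested.

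Igf2, the growth factor that signals through these receptors, was the only member below 1 FPKM. Igf2 (ENSRNOG00000020369) had 0.44, 0.52 and 0.13 FPKM in libraries 1, 2 and 3, lowest in library 3 (0.363 ± 0.206 FPKM, SD, n = 3; limma, Benjamini-Hochberg adjusted p = 1). Igf1 was also low, at 0.15, 0.36 and 0.07 FPKM. Igf2r, which clears Igf2 and is itself imprinted in mouse, had 12.4 ± 2.15 FPKM, at least 19.1 times the level of Igf2 in each library. Igf2 is known from mesenchyme, muscle and vessels. The summed level of the 7 fibroblast and meningeal markers was 3.75, 4.24 and 3.25 FPKM, with Dcn listed at 0 in all libraries. The 5 endothelial markers summed to 0.45, 0.53 and 0.40 FPKM and the 4 muscle markers to 0.59, 0.44 and 0.69, with Myog at 0 in all libraries. The 2 erythroid markers matched summed to 57.6, 31.4 and 13.1 FPKM. Hba1 held most of this sum, at 56.9, 30.2 and 12.4 FPKM in libraries 1, 2 and 3. Hbb had 0.69, 1.2 and 0.62 FPKM, highest in library 2, and was not called above 1 FPKM. The 4 microglia and macrophage markers summed to 7.01, 10.7 and 10.9 FPKM. The part of these cells in the level of Igf2 was not tested.

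Of the 20 genes listed for the IGF axis, 13 (65%) lay above 1 FPKM, about the share of all rows (63.7%). The binding protein gene Igfbp5 led with 70.1 ± 7.55 FPKM (SD, n = 3), before Igf2bp2, whose product binds Igf2 mRNA, at 19.2 ± 1.48 and Igfbp2 at 15.9 ± 1.93. Igfbp6 was listed at 0, 0.05 and 0 FPKM. Igfbp7 had 1.11, 2.10 and 1.06 FPKM, highest in library 2, and missed the threshold with a Benjamini-Hochberg adjusted p of 0.0610 in limma. The count for this list depended on the settings. It was 14 with a common sum, without a filter on low values and with a mean of at least 0.1 FPKM, and 12 without library 2.

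**Figure D3:**
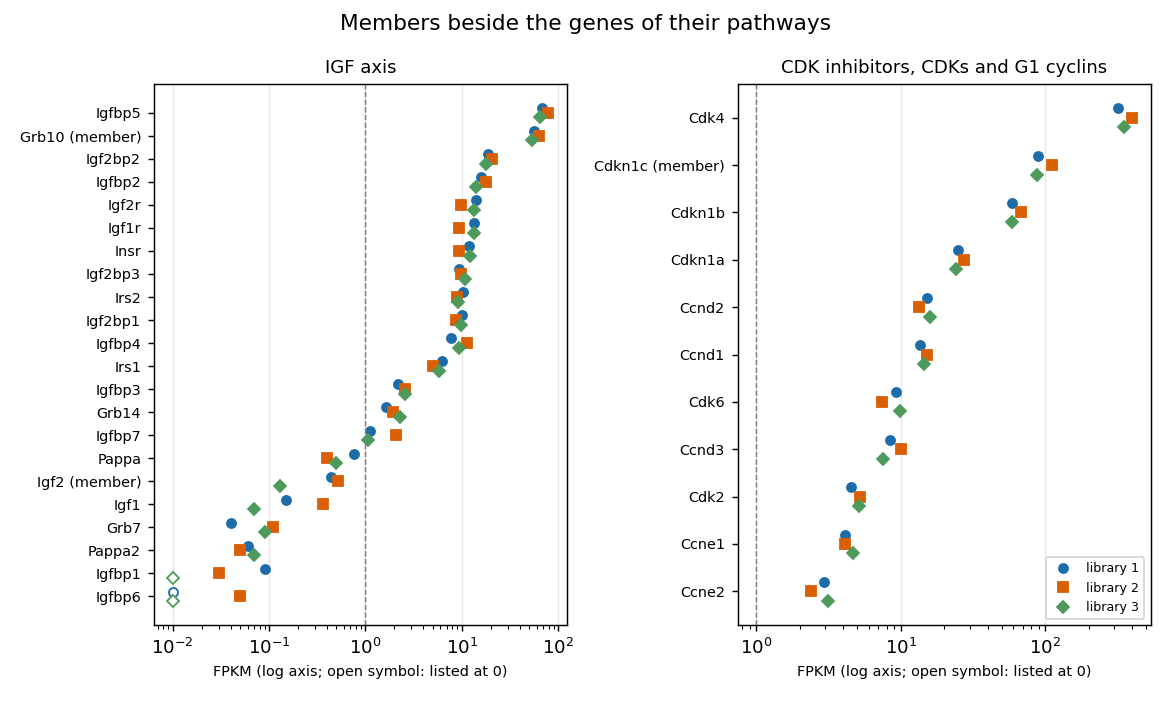
FPKM on log axes in libraries 1, 2 and 3 (symbols) for the IGF axis with Igf2 and Grb10 (left) and for the CDK inhibitors, kinases and G1 cyclins with Cdkn1c (right), ordered by mean, with a dashed line at 1 FPKM. Grb10 stands near the top of the left panel and Igf2 among its lowest genes, while Cdkn1c is second to Cdk4 on the right.

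Peg3 and Plagl1 encode zinc finger DNA-binding proteins. Peg3 (ENSRNOG00000014791) had 60.5, 41.3 and 60.8 FPKM, or 54.2 ± 11.2 FPKM (SD, n = 3), lowest in library 2. Its neighbour Usp29, a ubiquitin protease gene that shares its promoter region with Peg3 in mouse, had 20.5, 20.1 and 20.3 FPKM and did not share the low value in library 2. The ratio of Peg3 to Usp29 was therefore 2.05 in library 2, against 2.96 and 2.99 in libraries 1 and 3. Zim1, next to Peg3 on its other side and maternally expressed in mouse, had 0.560 ± 0.108 FPKM. The 4 genes listed as partners of Peg3 in cell death signalling all passed, as did 63.7% of all rows tested. Bax had 104 ± 10.1, Siah1 39.7 ± 3.61, Siah2 8.54 ± 0.577 and Traf2 4.63 ± 0.510 FPKM.

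Plagl1, also known as Zac1, is a transcription factor that can arrest the cell cycle and that regulates other imprinted genes in mouse. Plagl1 (ENSRNOG00000025587) had 12.9, 8.51 and 12.0 FPKM, or 11.1 ± 2.31 FPKM (SD, n = 3), again lowest in library 2. Its relatives Plagl2 and Plag1 had 7.69 ± 0.438 and 1.17 ± 0.0987 FPKM. Plagl1 exceeded Plagl2 by 1.70 and 1.63 times in libraries 1 and 3 and by 1.04 times in library 2. Plag1 missed the threshold with a Benjamini-Hochberg adjusted p of 0.128 in limma, so 1 of the 2 relatives lay above 1 FPKM, or 2 with a prior that was neither robust nor trended.

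Dlk1 encodes an EGF-repeat membrane protein, related to the Notch ligands, that can modify Notch signalling. Dlk1 (ENSRNOG00000019584) had 9.49, 10.9 and 11.8 FPKM, or 10.8 ± 1.18 FPKM (SD, n = 3), and exceeded its relative Dlk2, at 5.96 ± 0.385 FPKM, by 1.53 to 2.15 times. All 8 Notch pathway genes on the list lay above 1 FPKM, as did 63.7% of all rows tested. Dll1 had 18.2 ± 2.03, Dll3 15.3 ± 2.77, Notch1 11.4 ± 1.46 and Jag1, the lowest, 3.15 ± 0.281 FPKM. Dlk1 had 0.523 to 0.734 times the level of Dll1.

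In the order of the member rows by mean level, 7 of 9 neighbours differed past the threshold in limma's fit of log2 ratios within libraries over all rows. The order was taken from these same libraries, so the direction of each pair largely follows from the sorting. Among the 9 pairs are the 2 rows of Nnat, so between genes 6 of 8 neighbours differed. That fit shares the noise of the denominator gene over all rows, and its intervals were narrower than those of the second fit in some pairs and wider in others. The intervals and p-values below come from that second limma fit, chosen after the data were seen, in which each row kept its own moderated variance. The second fit did not pair the rows within libraries, so it ignored whether 2 genes moved together or oppositely across libraries. For the described Nnat row over Ndn, its fold interval was 4.15 to 6.10, against 4.8 to 5.28 in the first, paired fit. For Grb10 over Peg3, it was 0.871 to 1.34, against 0.774 to 1.51 in the first fit. The second fit called the same 7 pairs. Most rows differ from any given gene: pooled over the 9 higher genes, 94.8% of all rows were called different in the first fit and 96.0% in the second. Neighbours in a sorted order are the closest pairs, so these shares are not a like background for them. The described Nnat row exceeded Ndn by 5.03-fold (95% interval 4.15 to 6.10, limma, adjusted p = 1.61e-11 over all rows, higher in all 3 libraries). Ndn exceeded Cdkn1c by 3.41-fold (2.85 to 4.08) and Cdkn1c exceeded Grb10 by 1.65-fold (1.40 to 1.96, limma, adjusted p = 1.42e-05). Peg3 exceeded Plagl1 by 4.84-fold (3.76 to 6.22) and Magel2 exceeded Igf2 by 16.9-fold (10.4 to 27.4), each higher in 3 of 3 libraries. These folds are on the log2(FPKM + 0.1) scale, which understates those of low genes.

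Grb10 and Peg3 did not differ past the threshold (1.08-fold, 95% interval 0.871 to 1.34, adjusted p = 0.456 in limma), and neither did Plagl1 and Dlk1 (1.02-fold, 0.823 to 1.27, adjusted p = 0.835). Without library 2, Peg3 lay above Grb10 (log2 ratio 0.14, limma with own variances, adjusted p = 0.0436). The log2 ratio of Dlk1 over Plagl1 was -0.23 without library 2 (limma, adjusted p = 0.253; 0.0287 in the first fit) and 0.17 without library 1 (adjusted p = 0.464). Dlk1 exceeded Magel2 by 1.505-fold (1.26 to 1.80, limma, adjusted p = 0.000232) and was higher in 3 of 3 libraries. Without library 2 the log2 ratio of Magel2 over Dlk1 was -0.47, against -0.59 with all libraries, and did not pass (limma, adjusted p = 0.103, and 0.0507 in the first fit).

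Members differed in how library 2 stood to the other libraries. Peg3, Plagl1 and Magel2 were lower there than the mean of libraries 1 and 3 on the deposited scale, with log2 differences of -0.55, -0.54 and -0.30. Among the 8069 described genes with a mean of at least 5 FPKM, the 5th percentile of this difference was -0.28, the median 0.14 and the 95th percentile 0.37. The described Nnat row (0.21), Ndn (0.20), Grb10 (0.20), Cdkn1c (0.32) and Dlk1 (0.04) lay within that range. Igf2, at 0.81, lay above it, but its values are all under 1 FPKM. Among the genes low in library 2 were also Zdbf2 (-0.66), a paternally expressed zinc finger gene, Igf2r (-0.45) and the commissural markers Robo3 (-0.67), Dcc (-0.54) and Cntn2 (-0.44), while Boc (0.06) was not. The cause was not tested, and each library is a single sample. A rescaling moves all genes of a library nearly alike: the median of the described genes was 0.51 with libraries rescaled to a common sum and 0.06 with a common upper quartile. The common sum put Magel2 at 0.06, Peg3 at -0.19 and Plagl1 at -0.18, but the 56 rows above 10000 FPKM hold 98.2%, 97.6% and 98.0% of the sum in libraries 1, 2 and 3. With the sum of the other rows, a scaling chosen after the data were seen, Magel2 was at -0.28, Peg3 at -0.53 and Plagl1 at -0.52. With the upper quartile Dlk1 (-0.04), the undescribed Nnat row (-0.01) and Boc (-0.02) became negative. Relative to the median of the described genes, Peg3 lay at -0.70, Plagl1 at -0.69 and Magel2 at -0.45 on the deposited scale and under these 3 scalings.

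**Figure D4:**
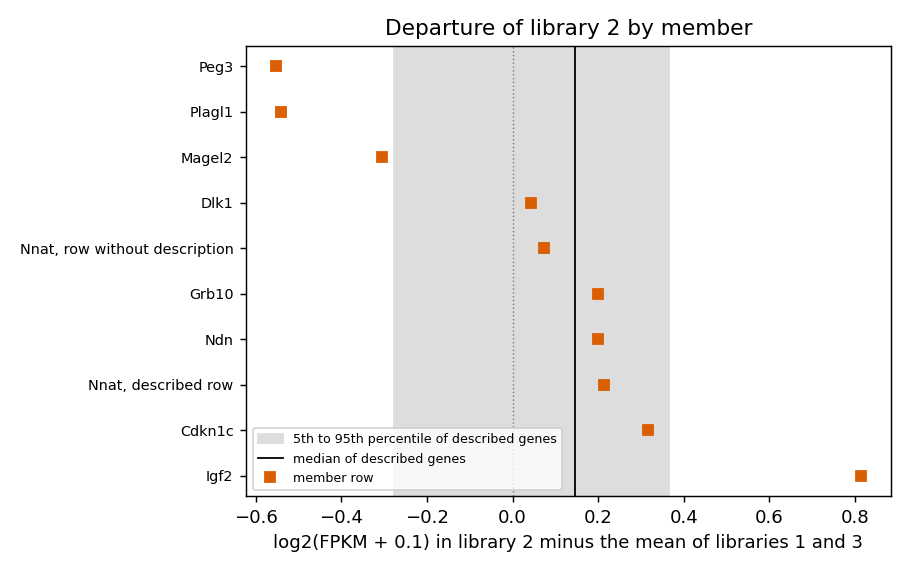
Each member row's log2(FPKM + 0.1), on the deposited scale, in library 2 minus the mean of libraries 1 and 3 (squares), with the median (line) and the 5th to 95th percentile (grey band) of 8069 described genes. Peg3, Plagl1 and Magel2 lie left of the band, Igf2 right of it and the other rows within it.

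Other imprinted genes were counted by the parental allele they use in mouse. Of 13 paternally expressed genes matched, 11 (84.6%) lay above 1 FPKM, against 63.7% of all rows. Beside the higher Snurf row, which may include Snrpn fragments, the highest were Mest, a hydrolase gene, and Nap1l5, related to nucleosome assembly proteins. Mest had 182 ± 4.42 and Nap1l5 82.7 ± 10.4 FPKM (SD, n = 3 each), while Slc38a4, an amino acid transporter gene, was listed at 0.02 in each library. Of 14 maternally expressed genes, 7 (50.0%) passed, led by Copg2 at 46.1 ± 1.75 and Trappc9 at 20.3 ± 0.255 FPKM, both of membrane traffic, and Ube3a. Medians of the gene means were 13.25 FPKM for the paternal and 2.22 FPKM for the maternal list. The difference between these lists was not tested. The long noncoding RNAs Meg3, H19 and Kcnq1ot1 had no row under these symbols and are not analysed here.

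Of the 15 genes that maintain or remove the methylation marks of imprinting, 14 (93.3%) lay above 1 FPKM, against 63.7% of all rows. Trim28, the corepressor that ZFP57 recruits, had 156 ± 6.67 FPKM, Zfp57 33.4 ± 1.84 and the insulator factor gene Ctcf 30.2 ± 1.28 (SD, n = 3 each). The maintenance methyltransferase gene Dnmt1 had 25.6 ± 1.72 and Dnmt3a 18.0 ± 1.19 FPKM. Dnmt3b, the other de novo methyltransferase gene, had 0.950 ± 0.040 FPKM and was the one that did not pass. All 10 genes for Sm and other snRNP proteins passed, beside the same 63.7% of all rows. They ran from Snrpg at 201 ± 35.2, Snrpd3 at 193 ± 24.5 and Snrnp70 at 187 ± 31.0 to Snrpa1 at 32.6 ± 2.02 FPKM.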

How the data were processed

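Per the submitters' processing notes, reads were handled with FastQC, Trimmomatic 0.22 and STAR on rn6; per the labels, libraries were stranded and read as 50 bp pairs. The deposited values are the authors' FPKM, 1 column for each library; the counting tool, annotation and use of strand behind them are not stated in those notes, so overlapping genes such as Nnat and Blcap or Snurf and Snrpn may share fragments. The absolute depth is unknown.

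The test scale was log2(FPKM + 0.1), with no further scaling. Rows at 0 in every library were dropped, and limma 3.58.1 (R 4.3.3) compared the other 17611 with 1 FPKM, one-sided, using a robust trended prior and Benjamini-Hochberg adjustment at 0.05. Ratios to each member were fitted over the same rows, two-sided. Both were checked on simulated data. Alternatives were pseudocounts of 0.01 and 1, other scalings, filters, levels and priors, and each library left out.

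Members and lists were chosen with earlier results of these data known. Of 178 list and marker symbols, 13 matched no row and 6 were matched through RefSeq synonyms (GRCr8, used for names, neighbours and promoter letters). A gene with several rows counted as above 1 FPKM where any row was. The text names every member row, the 3 highest and the lowest gene of each pathway list (all where 5 or fewer matched), and overlapping or related genes. Some genes that this rule takes from the list of necdin and Magel2 partners are counted but not reported here by name. Igf1, Igf1r, Insr, Igfbp7, Usp7, Trim27, the WASH genes, Mkrn3, Peg12, Zim1, Phlda2, Kcnq1, Grb7, Grb14, Dlk2, Zdbf2, Sln, Atp2a1, Dnmt1 and Dnmt3a fall outside this rule and were named for their role after their values were seen. The marker genes Tubb3, Robo3, Dcc, Cntn2, Boc, Dcn, Myog, Pcna, Mki67, Top2a, Hba1 and Hbb also fall outside it and were named after their values were seen. Plots used matplotlib 3.10.9.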

Additional observations from a re-analysis of the deposited data

How the results depend on the processing

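The count of members above 1 FPKM was 8 under every alternative run except with described rows only, where it was 7 because the Peg3 row has no description. It was 8 at 0.5 FPKM and at 5 FPKM. The count of all rows above 1 FPKM ran from 10419 to 11245 across scalings, pseudocounts, filters and priors, and from 10942 to 11068 with 1 library left out; it was 12035 above 0.5 FPKM and 8195 above 5 FPKM. The count of neighbouring pairs called was 7 in the planned fit, 5 of the 6 pairs left with described rows only, and 7 to 8 with 1 library left out. The ratios of 2 pairs changed sign with 1 library left out, and the cause was not tested. The log2 ratio of Peg3 over Grb10 ran from -0.25 to 0.14 and passed the threshold on the positive side, without library 2. That of Dlk1 over Plagl1 ran from -0.23 to 0.17 and was positive without library 1 (limma, adjusted p = 0.734). With each row's own variance, 7 pairs were called with any 1 library left out, though not the same 7 without library 2. Of the 21 other lists, counts moved by more than 1.5 times in 2 at 0.5 FPKM and in 3 at 5 FPKM. They also moved in 1 each without library 2, without library 3 and with a prior that was neither robust nor trended. The microglia and macrophage count fell to 1 without library 2 and to 1 without library 3. The common sum and the upper quartile used for rescaling were the geometric means over libraries. No paired comparison of groups was possible because all libraries form 1 group. The planned ratios of genes were paired within libraries, while the fit with each row's own variance was not. FPKM does not give depth, so what a value near 0 allows cannot be stated.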
